A study of Mus musculus with 6 samples.

Results

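The proteasome genes measured here were the 50 genes, of 19938 tested, whose symbol starts with Psm followed by a letter from a to g and a number, each read by a probe set annotated to that gene alone. Where a gene had several such probe sets, the one with the largest interquartile range over the 6 arrays was used. The symbols covered both rings of the 20S core, the immunoproteasome, the regulatory particle, the assembly chaperones and the other activators. Psmc3ip, a meiotic recombination factor, and Psme3ip1, a protein that binds an activator of the proteasome, matched the symbols without being subunits, and 48 genes remained without them.

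RAW264.7 cells, an established mouse macrophage line, were transfected with miR-342-3p mimics (3 samples) or with negative control mimics (3 samples), and no other agent was named. A mimic is a short synthetic RNA that acts as the mature miRNA it copies. Total RNA was isolated 18 hours after transfection, and 150 ng of each sample was labeled and hybridized to an Affymetrix expression array. The miRNA that was raised, mmu-miR-342-3p, is printed here because it is the agent tested, with its seed (bases 2 to 8) in capitals. It is encoded on the plus strand of chromosome 12 at chr12:108658680-108658702 in GRCm38.p6, and its sequence was taken from RefSeq.
mmu-miR-342-3p: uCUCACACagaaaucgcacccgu

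The proteasome is the barrel-shaped protease that degrades proteins tagged with ubiquitin. Alpha rings gate the barrel, beta rings hold its protein-cutting sites, and a regulatory particle of ATPases and non-ATPase subunits binds ubiquitin chains, unfolds the substrate and feeds it in. In macrophages exposed to interferon, inducible catalytic subunits replace the constitutive ones and form the immunoproteasome, which is known for cutting peptides for MHC class I molecules.

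The values were log2 expression values, and a fold change was the mean of the miR-342-3p arrays minus the mean of the control arrays. The arrays' medians over all probe sets differed by 0.15 on the log2 scale, and no pair of arrays was identical. The miR-342-3p arrays resembled each other less, with correlations over all genes of 0.9909 to 0.9926, against 0.9982 to 0.9986 among the control arrays. Of 9 macrophage marker genes, 8 lay above the median of every array, as did 3 of 5 fibroblast markers and none of 4 lymphocyte markers. In the limma fit 2 macrophage markers were lower with miR-342-3p and 1 higher. All 5 fibroblast markers had positive fold changes, and 1 was called higher, Pdgfra (0.49). Their part in the results was not tested. A gene was called at a false discovery rate (FDR) under 0.1 in limma, which fits every gene linearly and borrows spread across genes, with adjustment over all of them. The labels number the samples without naming separate cultures, so the p-values measure the spread between these samples only.

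Of the 50 proteasome genes, 9 were lower with miR-342-3p, 1 was higher, and the remaining 40 missed the threshold. Among all genes, 7.42% were called lower and 4.14% higher. Nearly all members were well expressed: 48 of the 50 lay at or above the median level of all genes, where 13.6% were called lower and 6.19% higher in the same fit. The same 9 lower and 1 higher genes were among these 48. All 3 miR-342-3p arrays lay below all 3 control arrays for 25 members, against 15.5% of all genes and 28.2% of those at or above the median level. They lay above the controls for 3 members, against 21.4% of all genes and 21.1% of those at or above the median level. The groups overlapped for the other 22. At an unadjusted limma p under 0.05, 17 members were lower and 3 higher. The shares of all genes at that p were 13% lower and 12.5% higher, and those of genes at or above the median level 23.3% lower and 13.6% higher. A bulk sample cannot tell apart fewer cells of a kind and less RNA per cell.

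The median log2 fold change of the 50 genes was -0.13, against 0.07 over all genes and -0.02 over genes at or above the median level. Its size depended on the arrays and on the scaling. The median was -0.08 without miR-342-3p replicate 1, where that of all genes was 0.03. After repeated quantile normalization it was -0.07, where that of all genes was 0.09. It was -0.16 without miR-342-3p replicate 2, where that of all genes was 0.08. With each array centred on its median it was also -0.16, where that of all genes was 0.04. The shift was carried unevenly by the arrays. The median change from the control mean was -0.20 on miR-342-3p replicate 1, -0.06 on replicate 2 and -0.12 on replicate 3, and 41, 28 and 39 of the 50 genes were below the control mean on these arrays. Most changes were small, since only Psmd6, Psmg1, Psmc3ip and Psmc6 were more than 0.5 lower on the log2 scale.

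**Figure D1:**
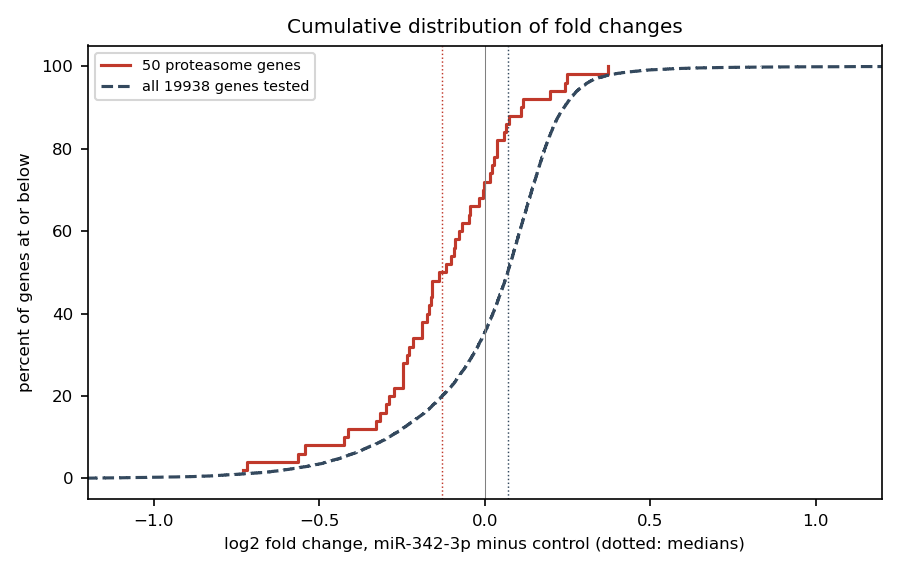
The cumulative percent of genes (y axis) at or below each log2 fold change (x axis, miR-342-3p minus control) is drawn for the 50 proteasome genes (solid line) and all 19938 genes tested (dashed line), with dotted lines at the medians of -0.13 and 0.07. The proteasome line lies to the left over most of the range, and fold changes of all genes beyond 1.2 in either direction fall outside the axis.

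**Figure D2:**
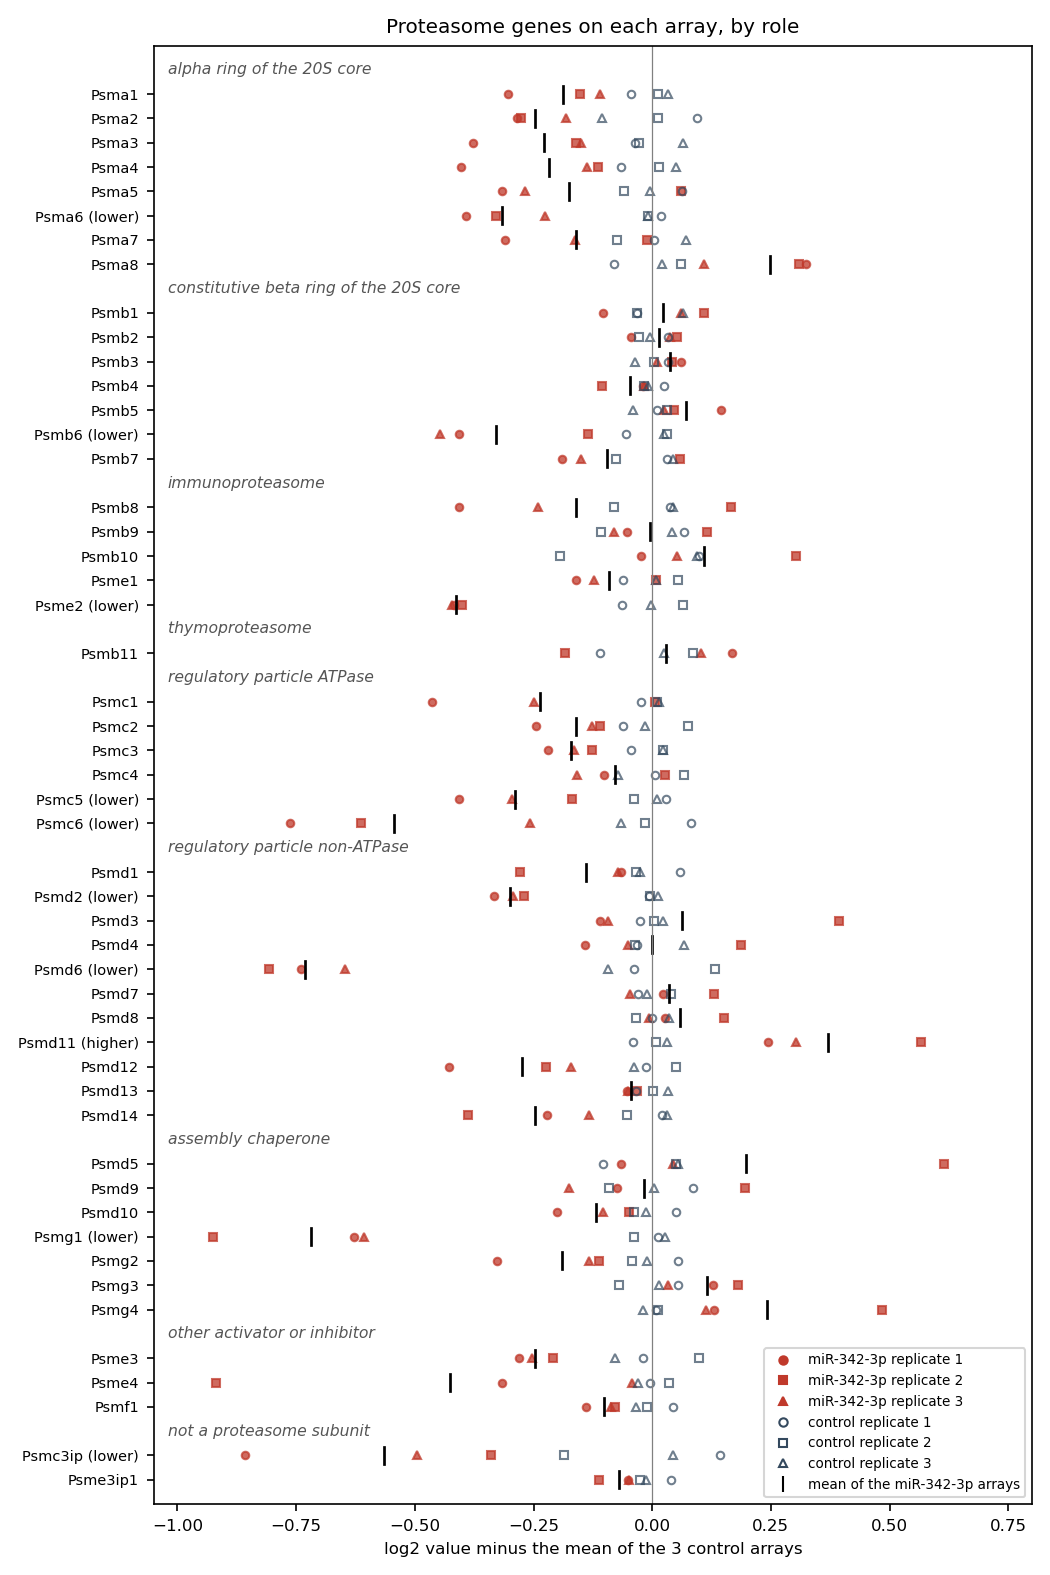
Each row is a proteasome gene, grouped by role, and the x axis is the log2 value minus the mean of the 3 control arrays. Filled red symbols are the 3 miR-342-3p arrays, open blue symbols the 3 control arrays, and the black bar the mean of the miR-342-3p arrays. By the mean bars Psmd6 and Psmg1 lie farthest to the left, at -0.73 and -0.72, and Psmd11 farthest to the right, at 0.37, while single arrays of other genes, such as Psme4, Psmc3ip and Psmd5, lie beyond these bars.

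The alpha ring, whose subunits close the gate of the 20S core, had negative fold changes almost throughout. All 7 ring genes expressed outside the testis, Psma1 to Psma7, had negative fold changes, between -0.32 and -0.16. The miR-342-3p arrays lay below all controls for 5 of them, but only Psma6 passed the test. Such a separation was found for 15.5% of all genes and 28.2% of those at or above the median level. For Psma5 the probe set used overlapped the controls (-0.17). A second one lay below all of them at -0.24 without passing the test (limma FDR over probe sets 0.17). Psma6 read 11.45, 11.52 and 11.62 on the miR-342-3p arrays, against 11.87, 11.84 and 11.84 on the control arrays. Every miR-342-3p value was below every control value. The log2 fold change was -0.32 (SE 0.076, limma FDR 0.052). Psma2 was next in size at -0.25 (limma FDR 0.11), and Psma7 was the least changed at -0.16 (limma FDR 0.29). Psma8, the testis form of an alpha subunit, had the opposite sign, 0.25 (limma FDR 0.13), and was dim, averaging 5.57 with miR-342-3p and 5.32 in controls.

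In the constitutive beta ring 1 of 7 genes passed the test. Psmb6, the caspase-like catalytic subunit beta1, read 11.25, 11.52 and 11.21 with miR-342-3p, against 11.60, 11.68 and 11.68 in controls. The groups did not overlap, though replicate 2 of the miR-342-3p arrays came within 0.08 of the lowest control. Its log2 fold change was -0.33 (SE 0.097, limma FDR 0.084). The call held in 9 of 16 alternative limma fits. It was lost, among others, once each array was centred on the median of its values (limma FDR 0.12). The other 6 genes of the ring had fold changes between -0.09 and 0.07, and none passed the test, nor reached an unadjusted limma p of 0.05. Psmb5, the chymotrypsin-like catalytic subunit beta5, had the highest, 0.07 (95% interval -0.10 to 0.24). Psmb7, the trypsin-like catalytic subunit beta2, was at -0.09 (95% interval -0.30 to 0.11).

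The rings were also set side by side by averaging the 7 genes of each on every array, as a description with no test. The mean change of Psma1 to Psma7 from the control mean was -0.34, -0.14 and -0.18 on miR-342-3p replicates 1, 2 and 3, while the control arrays stayed between -0.02 and 0.01. The mean change of Psmb1 to Psmb7 was -0.08, 0.01 and -0.07 on the same miR-342-3p arrays, and between -0.01 and 0.01 on the control arrays. On each miR-342-3p array the alpha ring was thus lower than the beta ring relative to controls.

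Of the 5 immunoproteasome genes only Psme2, the beta subunit of the PA28 activator, passed the test. Psme2 read 10.04, 10.05 and 10.03 with miR-342-3p, against 10.39, 10.52 and 10.45 in controls. The 3 miR-342-3p values lay within 0.03 of each other and below every control, and the log2 fold change was -0.41 (SE 0.073, limma FDR 0.022). A probe set shared between Psme2 and its near-identical copy Psme2b was not used. That probe set read 8.56, 9.18 and 9.14 with miR-342-3p, against 9.60, 9.59 and 9.63 in controls, also lower without overlap. Because of the copy, how much of either reading belongs to Psme2 is uncertain.

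Psme1, the partner of Psme2 in PA28, read 10.27, 10.44 and 10.31 with miR-342-3p, against 10.37, 10.48 and 10.44 in controls, and the groups overlapped. Its log2 fold change was -0.09 (95% interval -0.27 to 0.09, limma FDR 0.46). The difference Psme2 minus Psme1, a comparison chosen after these values were seen, was lower by 0.26, 0.41 and 0.30 on the miR-342-3p arrays relative to the control mean. The mean change of the difference was -0.32, given as a description with no test.

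The inducible catalytic subunits overlapped between the groups. Psmb8, or beta5i, read 8.39, 8.96 and 8.56 with miR-342-3p, against 8.84, 8.72 and 8.84 in controls, with replicate 2 of miR-342-3p above every control and the other replicates below. Its log2 fold change was -0.16 (95% interval -0.47 to 0.15, limma FDR 0.45). Without miR-342-3p replicate 2 it was -0.32 and passed the test (limma FDR 0.072). Psmb9, or beta1i, was at -0.01 (95% interval -0.21 to 0.19), and Psmb10, or beta2i, at 0.11 (95% interval -0.15 to 0.37).

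Each inducible subunit was compared with the constitutive subunit whose place it takes, as the change with miR-342-3p in the difference of their log2 values. For Psmb9 minus Psmb6 the miR-342-3p arrays were at 0.35, 0.25 and 0.37 relative to the control mean, against 0.12, -0.14 and 0.02 on the control arrays. The mean change was 0.32, carried by the fall of Psmb6. For Psmb10 minus Psmb7 the miR-342-3p arrays were at 0.17, 0.24 and 0.20, against 0.07, -0.12 and 0.05 on the control arrays, a change of 0.20. In both pairs every miR-342-3p value was above every control value, and the exact two-sided permutation test gave p = 0.1, the smallest this design allows, and 0.15 after adjustment over the 3 pairs. For Psmb8 minus Psmb5 the miR-342-3p arrays scattered from -0.55 to 0.12, against -0.11 to 0.08 on the control arrays, and the change of -0.23 had an exact p = 0.4. Psmb11, the catalytic subunit of the thymus form, was dim, averaging 6.04 with miR-342-3p and 6.01 in controls, with a log2 fold change of 0.03 (95% interval -0.22 to 0.27).

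**Figure D3:**
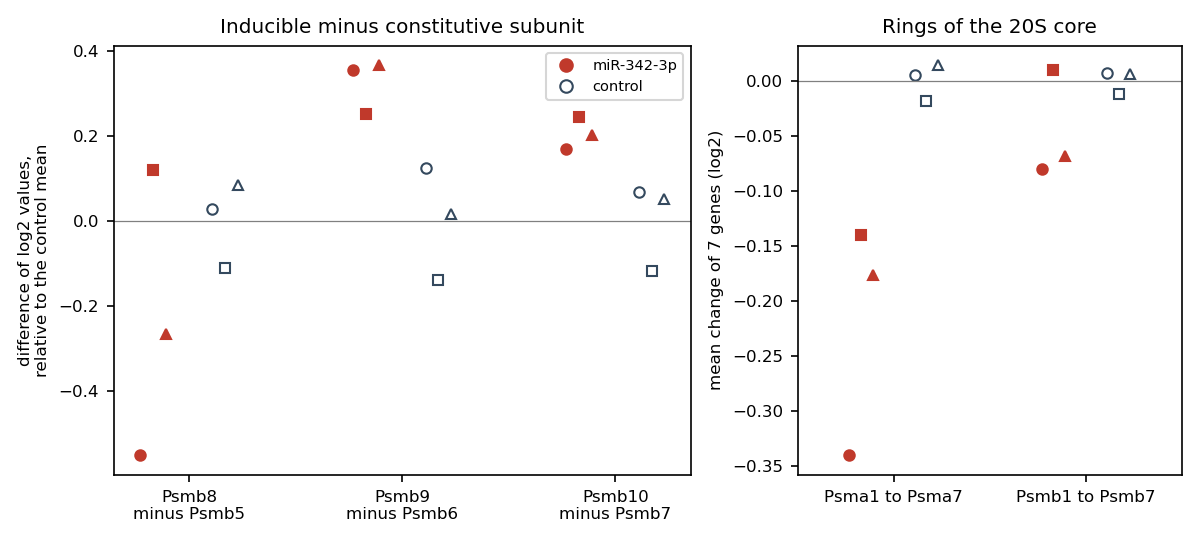
Left, the inducible minus the constitutive catalytic subunit for 3 pairs, as a difference of log2 values relative to the control mean, with the miR-342-3p arrays filled red and the control arrays open blue (circle, square and triangle for replicates 1, 2 and 3). The groups separate for Psmb9 minus Psmb6 and Psmb10 minus Psmb7 and overlap for Psmb8 minus Psmb5. Right, the mean log2 change of the 7 alpha ring and the 7 beta ring genes per array, where the alpha ring reaches -0.34.

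Of 17 measured genes of the regulatory particle, 4 were called lower and 1 higher. The shares called were 7.42% lower and 4.14% higher over all genes, and 13.6% and 6.19% at or above the median level. The 6 ATPases, the motor of the base, all had negative fold changes, and 2 passed the test. Their median was -0.20, against 0.07 over all genes and -0.02 over genes at or above the median level. Psmc6 read 9.34, 9.49 and 9.84 with miR-342-3p, against 10.18, 10.09 and 10.04 in controls. Replicate 3 was the least changed of the miR-342-3p arrays but still below every control. The log2 fold change was -0.54 (SE 0.13, limma FDR 0.046). Psmc5 read 9.05, 9.29 and 9.16 with miR-342-3p, against 9.49, 9.42 and 9.47 in controls, again without overlap. Its log2 fold change was -0.29 (SE 0.084, limma FDR 0.080). The call held in 10 of 16 alternative limma fits, and not once arrays were centred on their medians (limma FDR 0.12). Psmc4 was the least changed ATPase, at -0.08 (limma FDR 0.54).

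Among the 11 non-ATPase subunits, calls fell on both sides. Psmd6, the lid subunit Rpn7, had the largest change of any member. It read 10.33, 10.26 and 10.42 with miR-342-3p, against 11.03, 11.20 and 10.98 in controls. The gap between the groups was wider than the range within either, and the log2 fold change was -0.73 (SE 0.088, limma FDR 0.0085), or 60.3% of the control level. Psmd2, the scaffold Rpn1 of the base, read 10.99, 11.05 and 11.03 with miR-342-3p, against 11.32, 11.32 and 11.34 in controls. Both groups were tight and apart, with a log2 fold change of -0.30 (SE 0.070, limma FDR 0.047). A second probe set of Psmd2 gave -0.25 and also passed the test.

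Psmd11, the lid subunit Rpn6, was the 1 member that rose. It read 10.92, 11.24 and 10.98 with miR-342-3p, against 10.64, 10.68 and 10.71 in controls. All miR-342-3p values were above all controls, with replicate 2 the highest, and the log2 fold change was 0.37 (SE 0.096, limma FDR 0.062). The call did not hold once each array was centred on the median of its values, where the log2 fold change was 0.34 (limma FDR 0.14). It held in 11 of 16 alternative limma fits. Psmd12, the lid subunit Rpn5, and Psmd14, the deubiquitinase Rpn11, lay below all controls at -0.27 and -0.25 without passing the test (limma FDR 0.11 and 0.13). Psmd3, Psmd4, Psmd7, Psmd8 and Psmd13 were between -0.04 and 0.06, and Psmd1 was at -0.14.

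The assembly chaperones, which build the proteasome without being part of it, diverged. Psmg1, the core chaperone PAC1, read 10.26, 9.96 and 10.28 with miR-342-3p, against 10.90, 10.85 and 10.91 in controls. Replicate 2 was the lowest, and all 3 were more than 0.5 below the lowest control. The log2 fold change was -0.72 (SE 0.098, limma FDR 0.012), or 60.7% of the control level. Psmg2, which pairs with Psmg1 as PAC2, was lower by 0.19 on the log2 scale (limma FDR 0.20) and did not pass the test. Psmg4, the chaperone PAC4, read 9.27, 9.63 and 9.26 with miR-342-3p, against 9.15, 9.16 and 9.13 in controls, all above, with a log2 fold change of 0.24 (limma FDR 0.20). Psmd5, a chaperone of the base, had a log2 fold change of 0.20 (SE 0.16, limma FDR 0.44) that rested on miR-342-3p replicate 2, at 0.62 above the control mean, against -0.07 and 0.04 on the other replicates.

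The 3 remaining activators and inhibitors all lay below every control. That held for 15.5% of all genes and 28.2% of those at or above the median level. None of the 3 passed the test, while 1 had an unadjusted limma p under 0.05. The nuclear activator Psme3, or PA28 gamma, was just short of it at -0.25 (SE 0.078, limma FDR 0.1009). The nuclear activator Psme4, or PA200, was at -0.43 (SE 0.19, limma FDR 0.20), with miR-342-3p values of 9.59, 8.99 and 9.87, against 9.91, 9.95 and 9.88 in controls, so that replicate 2 gave most of the change. Psmf1, or PI31, a protein that binds the core, was at -0.10 (limma FDR 0.37). Of the symbols that are not subunits, Psmc3ip was lower at -0.56 (SE 0.14, limma FDR 0.056) and Psme3ip1 was at -0.07 (limma FDR 0.52).

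**Figure D4:**
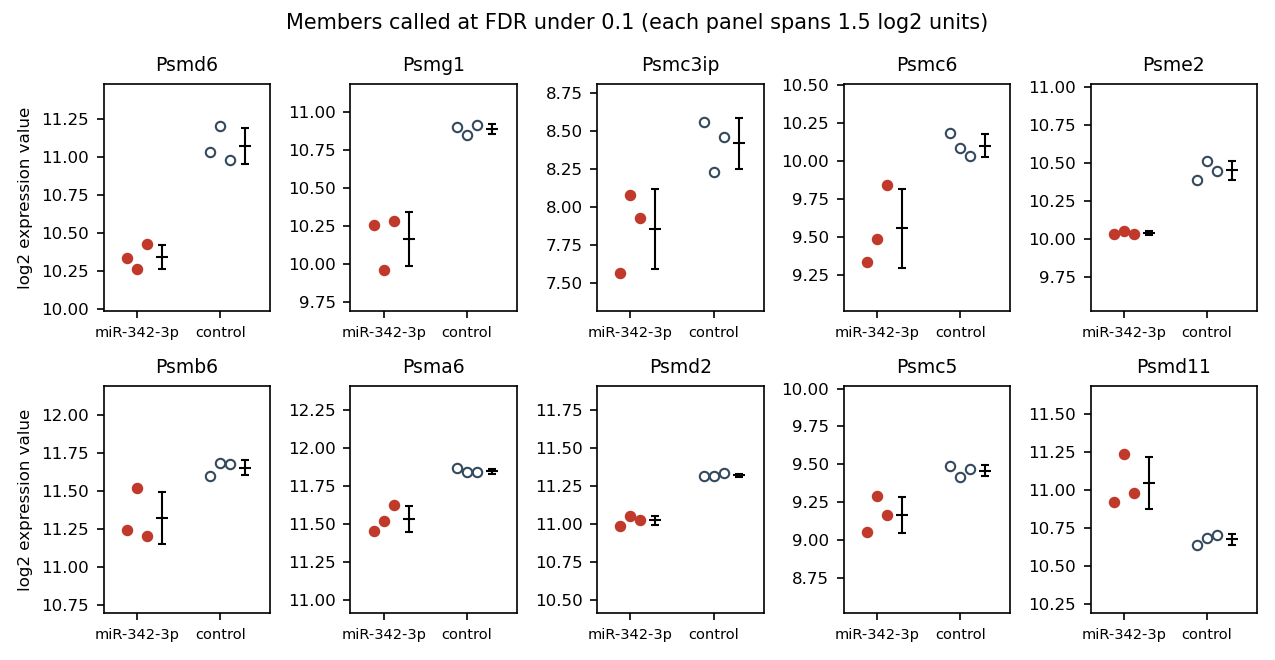
Log2 expression values (y axis, 1.5 log2 units in every panel) of the 10 called members on each miR-342-3p array (filled red) and each control array (open blue), with the mean and SD of each group beside them (n = 3 each). The groups do not overlap in any panel, and Psmd11 is the 1 panel in which miR-342-3p is higher.

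These calls, like those over all genes, leaned on all 3 control arrays. Without any 1 of the control arrays, 2 members were lower, Psmd6 and Psmg1 each time, and none was higher, against 9 and 1 with all arrays. The fold changes moved less than the calls. Their median over the members was -0.12, -0.13 and -0.13 without control replicate 1, 2 or 3, against -0.13 with all arrays. Over all genes, the fits without control replicate 1, 2 or 3 called 102, 115 and 140 lower, against 1479 with all arrays. They called 100, 88 and 94 higher, against 825. Psmd6 and Psmg1 passed the test in every limma fit run at FDR 0.1, with FDR values of 0.0015 to 0.063 for Psmd6 and 0.0026 to 0.080 for Psmg1. Without miR-342-3p replicate 2, 14 members were lower, and 1830 genes over all.

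**Figure D5:**
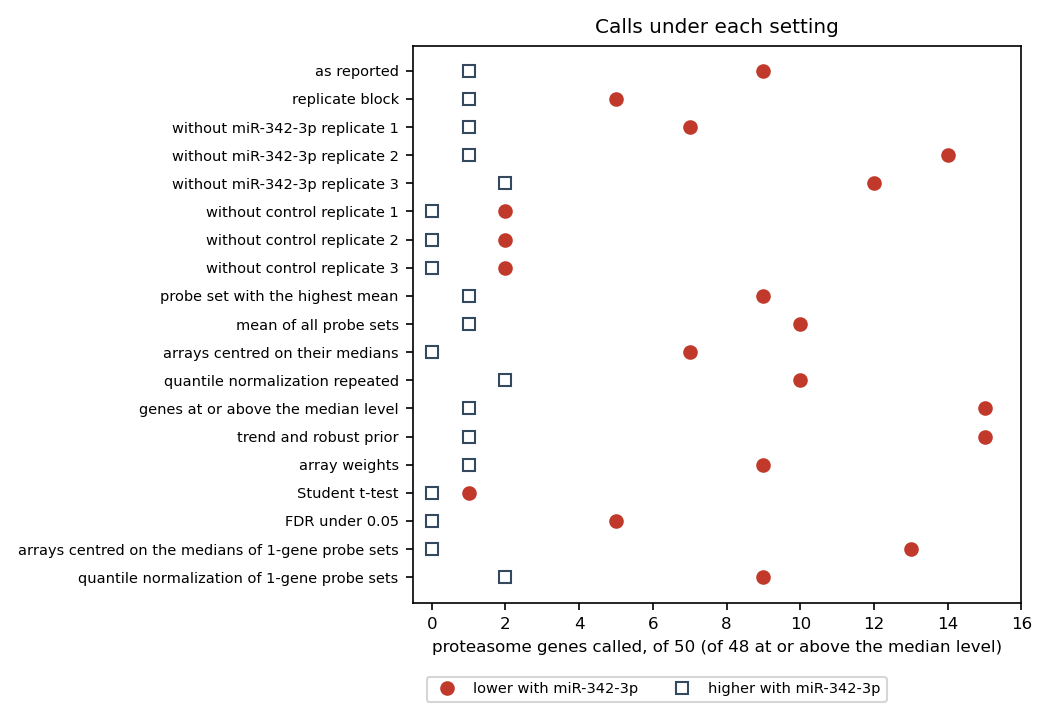
The number of proteasome genes called lower (filled red) or higher (open blue) with miR-342-3p, on the x axis, under each setting on the y axis. The count of lower genes runs from 1 to 15, and is 2 whenever a control array is left out.

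Genes that work beside the proteasome were read from 6 lists. Their counts stand beside shares of 7.42% called lower and 4.14% higher over all genes. Among genes at or above the median level these shares were 13.6% and 6.19%. At an unadjusted limma p under 0.05, 13% of all genes were lower and 12.5% higher. Among genes at or above the median level, 23.3% were lower and 13.6% higher at that p. Of 13 accessory genes outside the symbol rule, 4 were lower and none higher (5 and 0 at an unadjusted limma p under 0.05). Their median log2 fold change was -0.09, against 0.07 over all genes and -0.02 over genes at or above the median level. The deubiquitinase Uchl5, which sits on the regulatory particle, read 9.97, 9.82 and 10.30 with miR-342-3p, against 10.56, 10.55 and 10.56 in controls (-0.53, SE 0.12, limma FDR 0.041). The adaptor Ecpas (-0.43, limma FDR 0.0498), the core maturation factor Pomp (-0.42, limma FDR 0.054) and the deubiquitinase Usp14 (-0.36, limma FDR 0.049) were also lower, each without overlap between the groups.

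Of 8 regulators of proteasome genes, 1 passed the test, and at an unadjusted limma p under 0.05 the counts were 1 lower and 3 higher. Bach1, a repressor of antioxidant genes, was higher at 0.37 (SE 0.078, limma FDR 0.035). Nfe2l1, the factor that raises proteasome genes when proteasome activity drops, was at 0.18 (limma FDR 0.16), with 10.16, 10.15 and 10.11 with miR-342-3p, against 9.94, 10.01 and 9.94 in controls. Its relative Nfe2l2 was at 0.12 (limma FDR 0.31), and for both genes the miR-342-3p arrays were above all controls.

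Upstream in the ubiquitin pathway, 2 of the 4 measured genes for ubiquitin and its activating enzymes were lower, and all 4 at an unadjusted limma p under 0.05, with a list median of -0.46. They were Sae1, of the SUMO activating enzyme (-0.56, limma FDR 0.019), and Uba3, of the NEDD8 activating enzyme (-0.47, limma FDR 0.026), so both act on ubiquitin-like proteins. Of 21 core genes of the cullin ligases and the COP9 signalosome, 5 were lower and none higher, with a median of -0.24. At an unadjusted limma p under 0.05 the counts were 10 lower and 1 higher. Among all genes at or above the median level, 13.6% were called lower and 23.3% were lower at that p. Those called were the scaffolds Cul4b (-0.83, SE 0.17, limma FDR 0.031), Cul5 (-0.61, limma FDR 0.0497) and Cul1 (-0.39, limma FDR 0.090), and the signalosome subunits Cops4 (-0.31, limma FDR 0.089) and Cops6 (-0.30, limma FDR 0.064). Cul2, at -0.41, missed the threshold (limma FDR 0.12).

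Of 15 genes of the segregase p97 and its cofactors, 2 were higher, both of the ligase complex of the endoplasmic reticulum: Syvn1 (0.64, SE 0.086, limma FDR 0.012) and Sel1l (0.29, limma FDR 0.068). The list median was 0.08. The shares called higher were 4.14% of all genes and 6.19% of those at or above the median level. At an unadjusted limma p under 0.05, 4 genes of this list were lower and 2 higher, the lower ones being Ufd1, Nsfl1c, Faf1 and Ubxn7, at -0.32 to -0.22. Of 9 MHC class I processing genes, 1 was lower, the peptide-trimming enzyme Erap1 (-0.58, SE 0.12, limma FDR 0.032), which read 7.42, 7.59 and 7.90 with miR-342-3p, against 8.25, 8.19 and 8.21 in controls. The list median was -0.05, and Erap1 alone had an unadjusted limma p under 0.05. The shares called lower were 7.42% of all genes and 13.6% of those at or above the median level.

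Promoter letters were compared across the members as a description, and no link between them and the changes was tested. RefSeq windows of 300 bases (GRCm38.p6, 250 before to 50 after a start) were held for 42 of the 50 members, and 5 motifs were searched on both strands. The ETS core CCGGAAG stood in a window of 16 of the 42 members, or 38.1%, against 13.6% of all genes with a window and 21.5% of those at or above the median level. It stood in 6 of 9 windows of genes called lower, Psmc3ip among them, in 9 of 32 not called, and in Psmd11, the gene called higher. The CCAAT box stood in 38.1% of the members, against 41.7% of all genes and 42.6% of those at or above the median level. It stood in 2 of 9 genes called lower and 14 of 32 not called. The antioxidant element core TGACNNNGC, which is the kind of site that Nfe2l1 and Nfe2l2 bind, stood in 14.3% of the members. The share was 15.2% of all genes and 16.7% of those at or above the median level. Among members it stood in 2 of 9 called lower and 4 of 32 not called. The interferon-stimulated response element, a pair of GAAA blocks with any 2 bases between them, stood in 11.9% of the members. The share was 3.89% of all genes and 3.59% of those at or above the median level. Its carriers were Psmb3, Psmd4, Psmd9, Psme1 and Psmg4, of which only Psme1 is an immunoproteasome gene. Thus it stood in 0 of 9 called lower and 5 of 32 not called. The gamma-activated element TTCNNNGAA stood in 7.14% of the members, against 8.99% of all genes and 7.85% of those at or above the median level. It stood in 2 of 9 called lower and 1 of 32 not called. No split by call was tested. These are matches of letters, and binding was not measured.

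The ETS core, in capitals, is shown with 11 bases on either side for 4 genes called lower and for Psmd11, each read on the strand that holds these letters. None of the printed matches overlapped another of the motifs.
Psmd6, chr14:14120973-14121001, minus strand: cagagacgcgaCCGGAAGtcagactggcg
Psmg1, chr16:95991012-95991040, minus strand: ctcgcggcggaCCGGAAGctcttaggttc
Psmc6, chr14:45329713-45329741, plus strand: aggcgggccagCCGGAAGgggcggagcca
Psmd2, chr16:20651615-20651643, minus strand: tgtcctccagaCCGGAAGcgccctgcgga
Psmd11, chr11:80428593-80428621, minus strand: gaaacacacacCCGGAAGacccgccctcg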

How the data were processed

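The authors processed the Affymetrix arrays with robust multi-array averaging (RMA), which corrects background, normalizes by quantiles and summarizes probes, and deposited log2 values for 35556 probe sets in 6 samples. Of these, 21789 probe sets had 1 gene in the platform annotation, 1621 several and 12146 none, and 19938 genes were tested. Of the 1-gene probe sets, 21698 matched the RefSeq gene table (GRCm38.p6) by Entrez ID. Groups came from the sample titles. The fit used limma 3.58.1 in R 4.3.3 (lmFit and eBayes) with Benjamini-Hochberg adjustment over all genes and FDR under 0.1, and was tested on simulated data. The members and lists were chosen with earlier results of these data known. Named were all called members, the immunoproteasome genes and their constitutive partners, the extremes of each structural group, and the largest called genes of each list. Figures were drawn with matplotlib 3.10.9. The number of arrays limits the precision. Same-numbered arrays were not treated as pairs. Alternatives covered the block, each array left out, probe set choice, scaling, a level filter, the spread estimate, array weights, the test and the threshold.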

Additional observations from a re-analysis of the deposited data

How the results depend on the processing

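The counts of calls depended on the setting, and the cause of each change was not tested. As reported, 9 proteasome genes were lower and 1 higher. With the replicate block 5 were lower and 1 higher; same-numbered arrays did not deviate together (correlations -0.31, -0.16 and -0.11), so the numbers were not read as pairs. Leaving out 1 array gave 2 to 14 lower and 0 to 2 higher. Testing only genes at or above the median level, or using a trended robust prior, gave 15 lower and 1 higher each. The methods' t-test, stated for group comparisons in general and adjusted by Benjamini-Hochberg, gave 1 lower (Psmd2) and 0 higher, and FDR under 0.05 gave 5 and 0.

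The scaling alternatives were run on all probe sets as planned and, added after the data were seen, on 1-gene probe sets. Centring each array gave 7 lower and 0 higher on all probe sets, and 13 and 0 on 1-gene probe sets. Repeated quantile normalization gave 10 and 2, and 9 and 2. The median log2 fold change of the members, -0.13 as reported, was -0.08 without miR-342-3p replicate 1 and -0.07 after repeated quantile normalization on either set. It was -0.16 without miR-342-3p replicate 2. After centring it was -0.16 on all probe sets and -0.18 on 1-gene probe sets.

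Over all genes, 1479 were lower and 825 higher, so 64.2% of calls were lower. The lower share was 77.2% after centring (1379 and 408), 43.9% after repeated quantile normalization (1424 and 1817), and 81.0% (1886 and 441) and 49.8% (1412 and 1426) on 1-gene probe sets. The methods' t-test gave 22 lower and 26 higher, FDR under 0.05 gave 661 and 312, and leaving out 1 array gave 102 to 2422 lower and 88 to 2104 higher. The lists held 12 lower and 3 higher genes, 0 to 20 and 1 to 5 with 1 array left out, and 6 higher after repeated quantile normalization.

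Psmb9, at -0.01 and never called, changed sign in 6 settings. Its log2 fold change lay between -0.066 and 0.032 with 1 array left out, and was above 0 without miR-342-3p replicate 1 or 3 and without control replicate 1 or 3. It was 0.069 after repeated quantile normalization and 0.076 on 1-gene probe sets. The other 15 genes followed kept their sign in all 16 limma alternatives, as did the pairs in each alternative run.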
